A study of Mus musculus with 12 samples.

Results

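The Col8a1-positive low-Lum cells are a group of mesenchymal cells from the connective tissue beneath the sensory epithelium of the mouse utricle, one of the balance organs of the inner ear. They were chosen by their own expression values. A kept non-epithelial cell was called mesenchymal when at least 3 of the 5 genes Otor, Dcn, Col1a2, Coch and Car3 reached 100 CPM (counts per 1000000 counts of the cell) and Rgs5, a pericyte gene, stayed under 1000 CPM. Of these mesenchymal cells, those with Col8a1 at 20 CPM or more and Lum under 100 CPM were selected. The rule found 54 cells of 246 mesenchymal cells (22%, exact 95% binomial interval 16.9 to 27.7), of 375 kept non-epithelial cells and of 1007 kept cells in all. The other 192 mesenchymal cells comprised 112 cells with high Lum, of which 36 also carried Col8a1 at 20 CPM or more, and 80 cells low in both genes.

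Utricles came from wild-type FVB mice and from Pou4f3 DTR/+ mice, which carry a diphtheria toxin receptor in hair cells that was not activated here, at postnatal day (P) 4 and P6. Both sexes and several animals were pooled, the tissue was digested and the epithelium peeled off, and single cells were sorted into plates and read by Smart-seq2, which covers whole transcripts without molecular identifiers. The deposited cell table gives age, dissection and a sequencing batch for each cell, but no animal, sex, genotype or plate. All P4 mesenchymal cells belonged to batch 5 and the P6 cells to batches 2, 4 and 6, so age and batch cannot be told apart. Cells are not replicates, so no p-value is given. The spread shown is that between the 4 batches, and binomial intervals cover counting error only.

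Collagen VIII is a short-chain collagen that assembles into sheet-like networks and is best known from the basement membranes of corneal endothelium and from vessel walls. Lumican, the product of Lum, is a small leucine-rich proteoglycan that binds fibrillar collagen and spaces its fibrils. The mesenchyme of the inner ear is a source of extracellular matrix and takes part in moving potassium, through gap junctions among other routes, and its fibrocytes fall into several types. Gja1 (connexin 43, a gap junction channel) and Slc13a3 (a sodium-dependent carrier of dicarboxylates) were the other genes proposed as markers of the Col8a1-positive cells. The study had drawn these markers from the same cells, so their levels below describe the cells and are not independent support for the group.

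The 5 mesenchymal genes were high in the selected cells, as the rule required. All 5 reached 100 CPM in 43 of the cells and 4 of the 5 in the other 11. Otor, which encodes the secreted cartilage-related protein otoraplin, ranged from 173 to 115462 CPM with a median of 12542 CPM, and Col1a2, a chain of collagen I, from 203 to 12722 CPM with a median of 3869 CPM. These levels were fixed by the rule and say nothing more about the label.

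The values of both genes of the final step were set by the limits and are given as a description. Col8a1 ran from 46.2 CPM to 2694 CPM with a median of 626 CPM, and the second lowest cell had 127 CPM. Just outside the limit, the 2 highest low-Lum cells had 19.3 and 16.4 CPM. Lum was read in 3 of the 54 cells, at 6.35 CPM at most, while the lowest Lum values among Col8a1-positive cells outside the group were 291 and 314 CPM. The low-Lum cells left out thus came up to the Col8a1 limit itself.

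**Figure D1:**
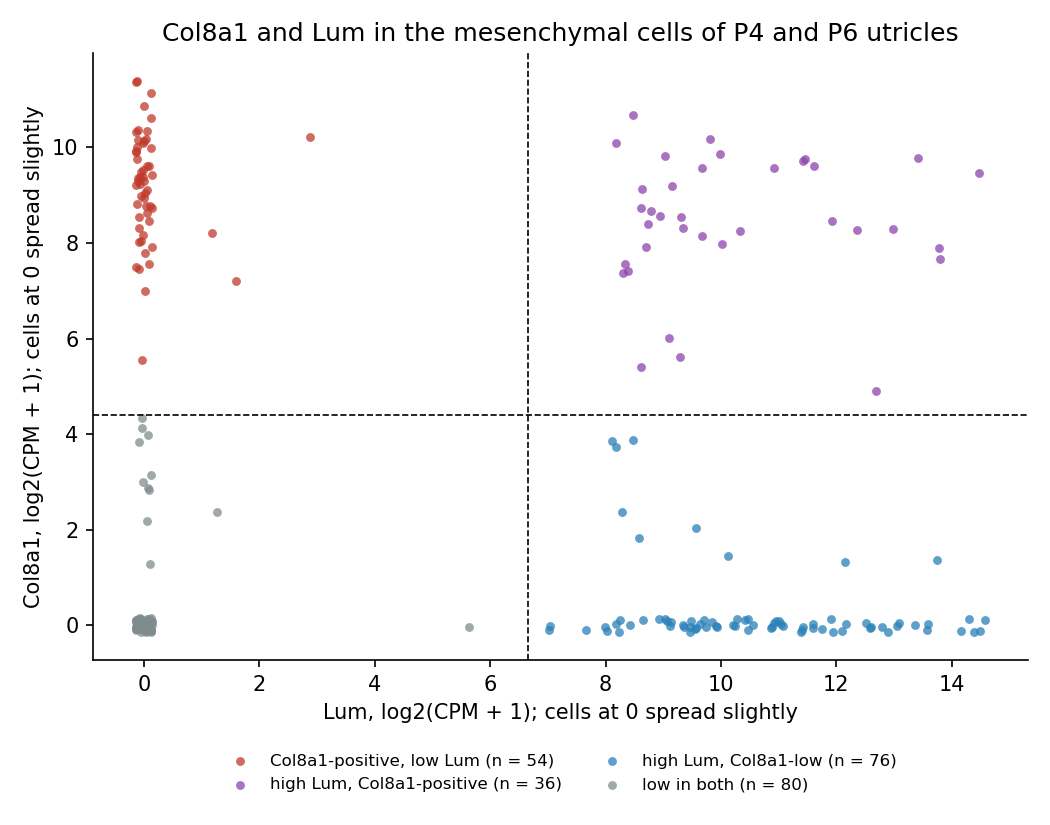
Col8a1 (vertical axis) against Lum (horizontal axis) in each of 246 mesenchymal cells, both as log2(CPM + 1), with the limits of 20 and 100 CPM as dashed lines and cells at 0 spread slightly. The 54 Col8a1-positive low-Lum cells at upper left all have Lum at or under 6.35 CPM, and 36 cells at upper right carry both genes.

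Col8a1 lies at chr16:57624258-57754737 on the minus strand (GRCm38, GENCODE annotation), Gja1 at chr10:56377330-56402513 on the plus strand and Slc13a3 at chr2:165405028-165473230 on the minus strand. The 300 bases around their annotated starts (250 before, 50 after; RefSeq, GRCm38.p6) are shown because these are the genes that name the group. The sequences run 5′ to 3′ on the gene's strand, and capitals mark matches, on either strand, to 5 motifs searched, namely TATAAA (the TATA box), TGACTCA (bound by AP-1), GGGCGG (the GC box), CACGTG (an E-box) and CATTCC (bound by TEAD factors).
Col8a1: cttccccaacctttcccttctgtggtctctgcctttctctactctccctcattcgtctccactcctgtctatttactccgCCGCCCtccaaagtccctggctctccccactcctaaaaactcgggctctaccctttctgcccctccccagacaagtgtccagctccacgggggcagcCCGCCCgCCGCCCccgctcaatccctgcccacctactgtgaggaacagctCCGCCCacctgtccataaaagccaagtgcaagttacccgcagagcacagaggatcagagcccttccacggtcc
Gja1: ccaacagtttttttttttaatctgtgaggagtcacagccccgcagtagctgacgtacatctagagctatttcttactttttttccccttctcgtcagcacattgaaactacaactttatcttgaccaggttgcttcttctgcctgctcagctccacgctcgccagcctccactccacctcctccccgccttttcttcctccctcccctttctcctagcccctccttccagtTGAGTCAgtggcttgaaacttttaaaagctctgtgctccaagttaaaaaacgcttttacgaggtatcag
Slc13a3: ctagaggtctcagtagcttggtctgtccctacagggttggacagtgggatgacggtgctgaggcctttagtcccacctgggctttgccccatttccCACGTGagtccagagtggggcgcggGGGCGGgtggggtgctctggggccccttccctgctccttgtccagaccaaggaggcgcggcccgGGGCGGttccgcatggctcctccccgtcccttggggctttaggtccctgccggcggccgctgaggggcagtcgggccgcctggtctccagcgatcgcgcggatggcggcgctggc
The Col8a1 window (chr16:57754688-57754987) held 4 matches to GGGCGG, all as its reverse complement. The Slc13a3 window (chr2:165473148-165473447) held 2 matches to GGGCGG and 1 to CACGTG, and the Gja1 window (chr10:56377050-56377349) held 1 match to TGACTCA as its reverse complement. Of 32851 RefSeq promoters of the same length, 35.7% held GGGCGG, 7.15% CACGTG, 5.2% TGACTCA, 14.7% CATTCC and 13.6% TATAAA. No motif was found in all 3 windows, and a match is a description of the letters only.

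Fewer mesenchymal cells met the rule in the P4 batch than in each P6 batch. In batch 5 (P4), 8 of 106 mesenchymal cells were Col8a1-positive with low Lum (7.55%, exact 95% interval 3.31 to 14.3). At P6, the share was 16 of 46 in batch 2 (34.8%, 21.4 to 50.2), 9 of 24 in batch 4 (37.5%, 18.8 to 59.4) and 21 of 70 in batch 6 (30%, 19.6 to 42.1). The P4 interval overlapped none of the P6 intervals, but these intervals cover counting error of cells only and do not test a difference between ages or batches. Mesenchymal cells low in both genes had the opposite order, with 51.9% at P4 and 10.9% to 21.4% in the P6 batches, whereas high-Lum cells made up 40.6% at P4 and 41.7% to 54.3% at P6. Counting every Col8a1-positive mesenchymal cell whatever its Lum, the share was 13.2% at P4 and 50% to 58.7% in the P6 batches. With 1 P4 batch against 3 P6 batches, an exact permutation test over batches cannot give a p under 0.25, and none was made. In batch 4, 48.9% of the deposited non-epithelial cells passed the filters, against 85.4% to 87.9% in the other batches.

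**Figure D2:**
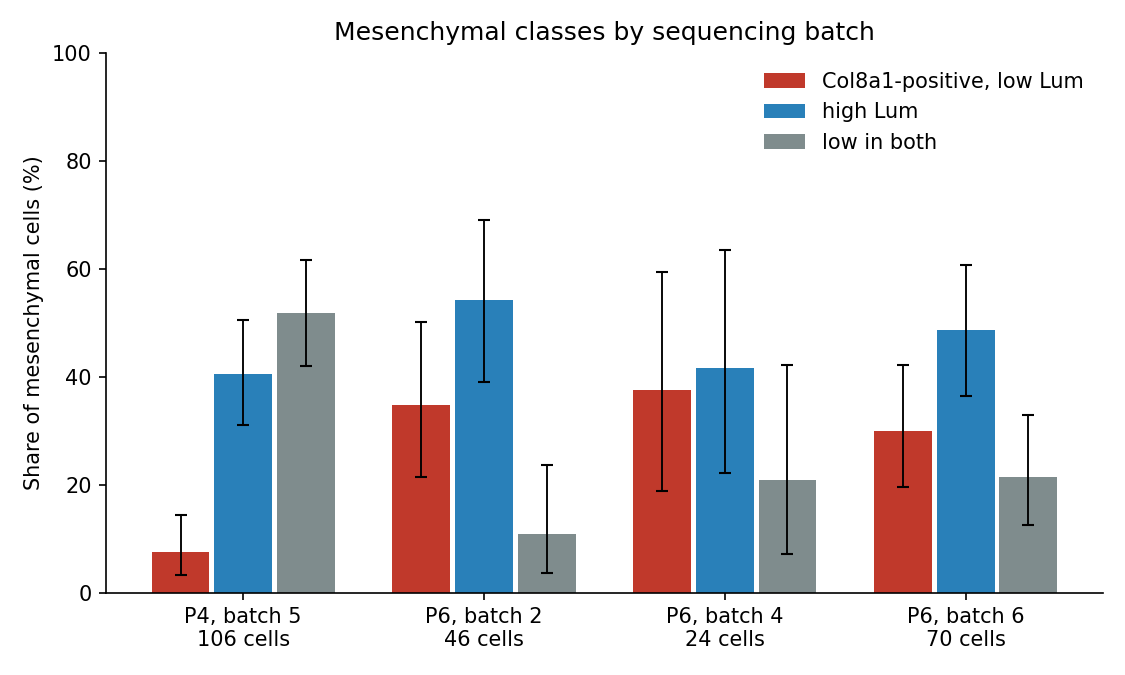
Share of mesenchymal cells (%) that were Col8a1-positive with low Lum, high in Lum, or low in both, in each of the 4 batches. Bars are shares and error bars exact 95% binomial intervals. The Col8a1-positive low-Lum share is 7.55% in the P4 batch and 30% to 37.5% in the P6 batches.

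Over all batches, the 54 cells had a median of 664021 reads (148799 to 1311448) and 2811 detected genes, and the other 192 had 619550 reads and 2810 genes. After thinning each cell to 200000 reads, which left out 1 of the 54 and 7 of the 192, the medians were 2622 and 2616 genes. Single batches differed more. In batch 4 the selected cells had a median of 386527 reads and 2597 genes beside 268190 reads and 1992 genes in the other mesenchymal cells (2453 and 1962 genes after thinning). At P4 the selected cells had fewer reads (503474 beside 596132) and more genes (3068 beside 2782). No cell name occurred more than once and no pair of cells had identical values.

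The selected cells were next compared with all other mesenchymal cells. Gja1, Ntrk2, Frzb, Acsl1, Itga8 and Ogn were higher in the Col8a1-positive low-Lum cells, and Rhoj, Slc29a1, Igf2, Fscn1, Wif1 and Tgfbi were lower. A gene was called when its mean CPM differed at least 2-fold (on log2 of mean CPM + 1) over all cells and in the same direction within each of the 4 batches, and when at least 25% of the cells of either group had a read. This is a rule of size, not a test. Of 4108 genes that passed the detection filter, 72 were called higher (1.75%) and 164 lower (3.99%). Of these, 40 of the higher genes passed the filter through the selected cells alone and 103 of the lower genes through the other cells alone, so the filter itself favoured these calls. With every cell thinned to 200000 reads, 68 genes were called higher and 147 lower. The rule that chose the cells reads the same cells, so these counts are a description. Because 85.2% of the selected cells and 49% of the others came from P6, the mean of the 4 within-batch differences with its SD (n = 4) is given beside many of the values. When genes were called from the 3 P6 batches alone, 72 of 132 higher genes (54.5%) were also higher at P4, beside 45% of all genes tested, and 168 of 234 lower genes (71.8%) were also lower at P4, beside 55% of all genes. For the higher genes, the share that held at P4 was thus not far above that of any gene.

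Gja1 was detected in 40 of the 54 cells (74.1%) and in 55 of the other 192 (28.6%). Its mean in the Col8a1-positive low-Lum cells was 642 CPM in the P4 batch and 1161, 385 and 362 CPM in P6 batches 2, 4 and 6. In the other mesenchymal cells of the same batches it was 147, 109, 303 and 159 CPM. The 2 sets of batch means did not overlap. Over all cells, Gja1 was 2.03 higher on the log2 scale (644 against 157 CPM), and within batches 1.76 ± 1.31 (SD, n = 4), with the smallest difference, 0.34, in batch 4.

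Slc13a3 was detected in 26 of the 54 cells (48.1%) and 33 of the other 192 (17.2%). Its mean was 134 CPM in the P4 batch and 206, 83.8 and 81.6 CPM in P6 batches 2, 4 and 6, against 7.92, 57.8, 33.5 and 79 CPM in the other mesenchymal cells. The difference was widest at P4, where 2 of the 8 cells carried a read, and nearly absent in batch 6, where the log2 difference was 0.04. Within batches it was 1.77 ± 1.62 (SD, n = 4), a spread almost as large as the mean.

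Ntrk2 encodes TrkB, the receptor of brain-derived neurotrophic factor. It was read in 40 of the 54 cells, with batch means of 279 CPM at P4 and 533, 430 and 318 CPM at P6, and of 54, 125, 200 and 179 CPM in the other cells. The batch means did not overlap, and the within-batch difference was 1.59 ± 0.74 (SD, n = 4). Frzb, a secreted inhibitor of Wnt signalling, was read in 28 of the 54 cells and 45 of the other 192. Its batch means were 443 CPM at P4 and 373, 335 and 268 CPM at P6, against 75.3, 195, 72.9 and 101 CPM, again without overlap, and its within-batch difference was 1.76 ± 0.73 (SD, n = 4).

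No single companion gene was read in every selected cell. Of Gja1, Slc13a3, Ntrk2 and Frzb, all 4 were detected in 11 of the 54 cells, 3 in 19, 2 in 13, 1 in 7 and none in 4. Among the other 192 mesenchymal cells, all 4 were detected in 9 and none in 91. Detection also depends on depth, so a gene without a read in a cell was not detected at this depth and cannot be called absent.

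**Figure D3:**
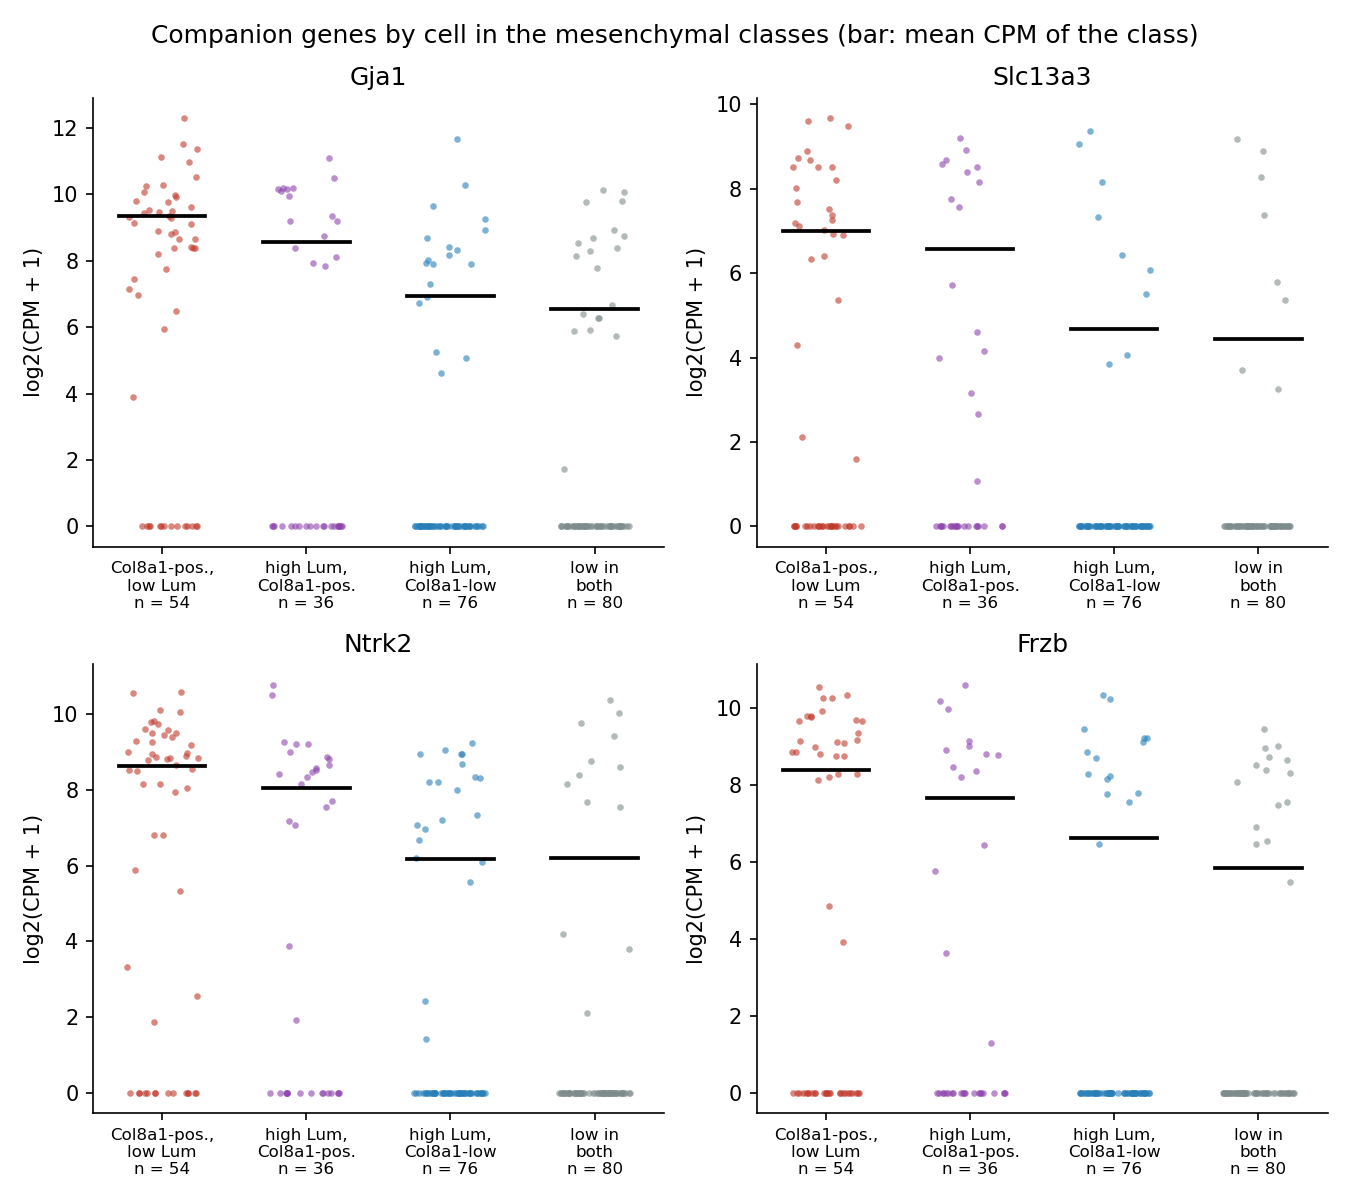
Gja1, Slc13a3, Ntrk2 and Frzb in each mesenchymal cell, as log2(CPM + 1), by class. Points are cells and bars the mean CPM of the class. Gja1 has a mean of 644 CPM in the 54 Col8a1-positive low-Lum cells, 378 CPM in the 36 cells high in both Col8a1 and Lum, 120 CPM in the 76 cells high in Lum alone and 91.5 CPM in the 80 cells low in both.

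The high-Lum cells allowed the companion genes to be read outside the selected group, between 36 cells with Col8a1 at 20 CPM or more and 76 cells below. Gja1 averaged 378 CPM in the former and 120 CPM in the latter, and was higher in all 4 batches. Ntrk2 (267 and 70.9 CPM) was also higher in 4 of 4 batches. Slc13a3 (93.8 and 24.5 CPM) and Frzb (203 and 97.7 CPM) were higher in 3 of 4, with the P4 batch as the exception for both. Npnt (584 and 172 CPM), Cpz (768 and 260 CPM) and Rbp4 (1116 and 448 CPM) were higher in Col8a1-positive cells in 4 of 4 batches. Wif1 and Igf2 were each higher in 2 of the 4 batches. Only 5 cells of each kind came from batch 4 and 6 Col8a1-positive cells from the P4 batch, so these batch means rest on few cells. Gja1, Slc13a3, Ntrk2, Frzb, Npnt, Cpz and Rbp4 are also on the study's gene list for its Col8a1-marked mesenchymal state. The study drew that list from its mesenchymal cells as a whole, high-Lum cells not set apart. Their direction here is thus a description and not independent support.

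Acsl1, Cnmd, Itga8 and Npnt were among the further genes with the largest positive differences. Acsl1, a long-chain acyl-CoA synthetase, averaged 248 CPM against 81.5 CPM in the other mesenchymal cells (within batches 1.87 ± 0.85 on the log2 scale, SD, n = 4). Cnmd, which encodes the cartilage glycoprotein chondromodulin, averaged 693 against 231 CPM, but its within-batch differences ran from 0.02 in batch 2 to 3.59 at P4. Itga8, the α8 integrin chain, averaged 497 against 175 CPM (1.24 ± 0.82), and Npnt, which encodes nephronectin, a ligand of α8β1 integrin, 557 against 241 CPM. The pooled Npnt difference of 1.20 was 0.60 ± 0.18 within batches, below the 2-fold limit in each batch. Itga8 shares exon sequence with E030013I19Rik, and the counting strand is not given in the sources used here, so reads of the 2 genes may be mixed.

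Ogn, the small leucine-rich proteoglycan osteoglycin, averaged 618 against 222 CPM (within batches 1.16 ± 0.46). Cpz, a secreted carboxypeptidase with a Wnt-binding domain, averaged 729 against 322 CPM, with differences from 0.20 to 2.30. Nfat5, a transcription factor of the response to osmotic stress, averaged 143 against 63.7 CPM and differed by 1.02 to 1.96 in each batch. The Nfat5 batch means did not overlap. Plekhh2, Klhl13, Strbp and Fam180a completed the 15 genes with the largest positive differences, at pooled log2 differences of 1.44, 1.24, 1.21 and 1.19. Strbp (a value of 6.75 in batch 4 beside 1.09 to 2.39 in the others) shares exon sequence with Rabgap1, and Acsl1, Plekhh2 and Klhl13 also overlap an annotated neighbour.

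Among the lower genes, Lum was fixed by the rule. Rhoj, a small GTPase of the Cdc42 family, was read in 9 of the 54 cells and averaged 21.7 CPM against 190 CPM, with a within-batch difference of -3.09 ± 1.05 (SD, n = 4) and no overlap of batch means. Igf2, the insulin-like growth factor active in fetal growth, averaged 79.9 against 269 CPM (-2.63 ± 1.27), also without overlap, and shares exon sequence with Igf2os. The other cells were not alike, as Igf2 averaged 405 CPM in high-Lum cells and 78 CPM in the cells low in both genes. Low Igf2 was thus shared with the latter. Slc29a1, an equilibrative nucleoside transporter, averaged 113 against 658 CPM. Its difference was -4.90 in batch 2 and -1.84 to -1.30 in the other 3 batches.

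Matn4 (matrilin 4) averaged 69.3 against 258 CPM (within batches -1.48 ± 0.73), Cthrc1, a secreted protein of collagen-producing cells, 89 against 251 CPM (-1.59 ± 0.67), and Tgfbi, an adhesion protein induced by TGF-beta, 290 against 782 CPM (-1.24 ± 0.84). Wif1, a secreted Wnt inhibitor like Frzb, averaged 376 against 1032 CPM. The Wif1 difference was -2.07 in batch 2, -1.24 in batch 4 and -1.53 at P4, but -0.04 in batch 6. Against high-Lum cells, which averaged 531 CPM, Wif1 was not called, and the difference was carried by the cells low in both genes, at 1734 CPM. Fscn1 (the actin-bundling fascin, -1.77 ± 0.89), Fam234a (-1.72 ± 0.39), Serpinf1 (pigment epithelium-derived factor, -1.23 ± 0.77), S100b (a calcium-binding protein, -2.14 ± 1.05), Sulf1 (a heparan sulphate endosulphatase, -2.44 ± 2.34), Med21 (-1.22 ± 1.13) and Pltp (phospholipid transfer protein, -1.32 ± 0.75) were lower in all 4 batches. Matn4, Slc29a1, Med21 and Pltp share exon sequence with neighbouring genes.

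**Figure D4:**
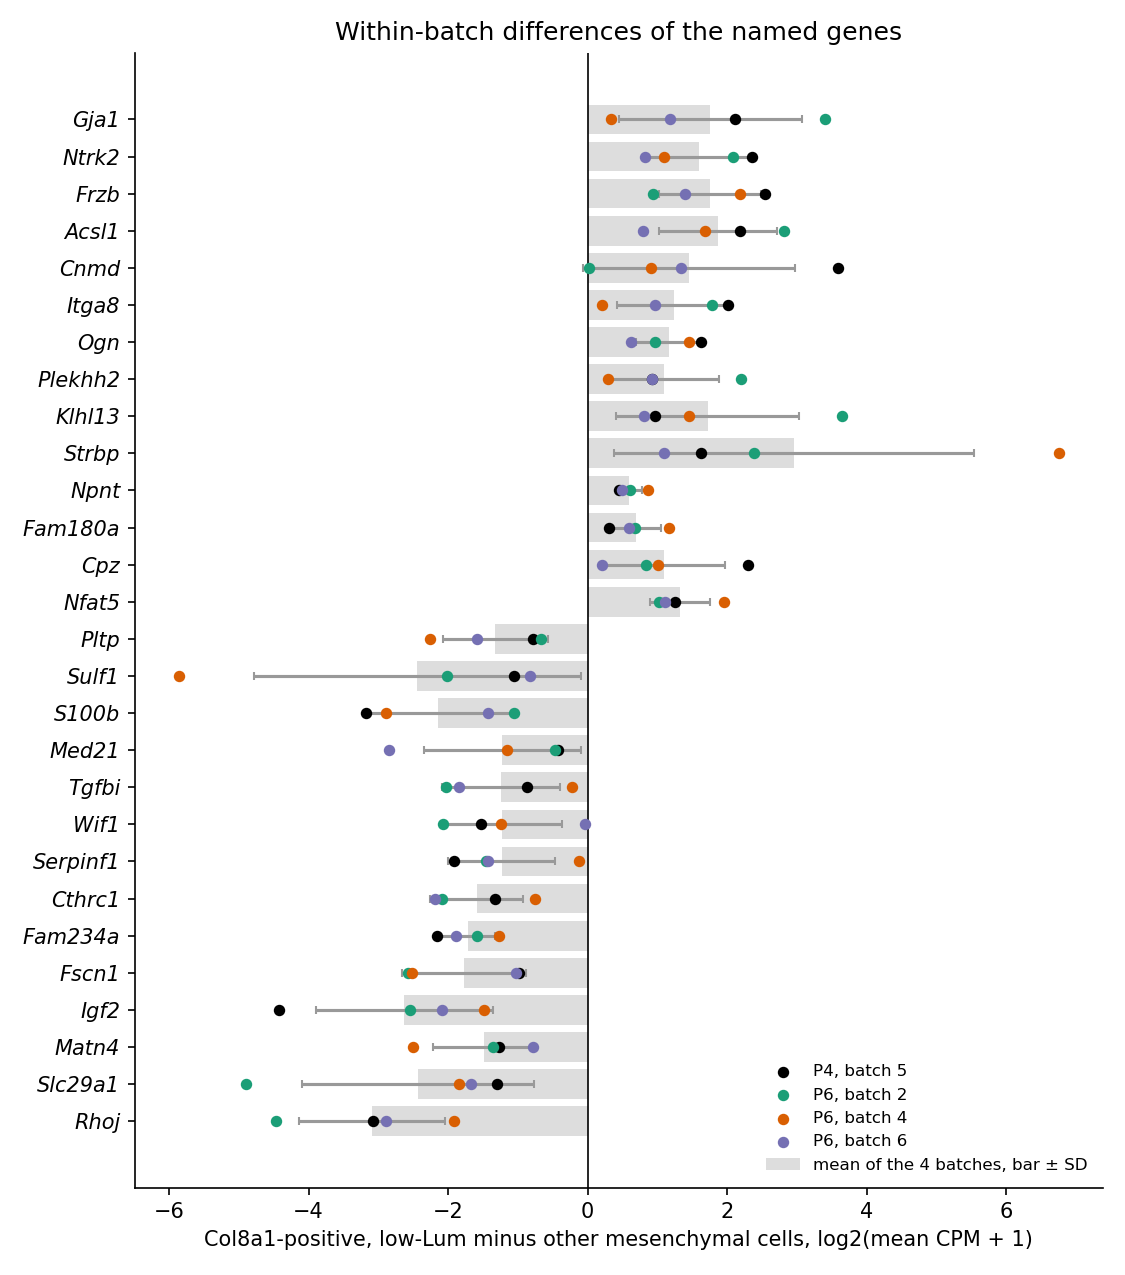
Difference between Col8a1-positive low-Lum cells and the other mesenchymal cells, in log2(mean CPM + 1), for 28 named genes without the rule genes Col8a1 and Lum. Points are the 4 batches, grey bars their mean and whiskers ± SD. Rhoj lies between -4.47 and -1.91 in the 4 batches and Npnt between 0.45 and 0.86.

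The 54 genes that the study listed for its Col8a1-marked mesenchymal state, S1, included 19 of the 72 genes called higher. Of 51 that passed the detection filter, 19 were called higher and 0 lower, beside 1.75% and 3.99% over all genes tested, with a median log2 difference of 1.08 (0.93 within batches) beside -0.05 over all 4108 genes. The study chose this list on these cells, so it is not independent evidence of its direction. Beyond the genes above, the called members were Car3 (a rule gene), Cavin1 (a caveolar coat protein, 427 against 201 CPM, 1.18 ± 0.32 within batches), Csrp2 (a LIM domain protein, 59.7 against 15 CPM, 1.87 ± 0.44), Mfap4 (a microfibril protein, 584 against 283 CPM, 1.42 ± 0.69), Rbp4 (retinol-binding protein, 1058 against 475 CPM, 0.64 ± 0.21), Scpep1 (280 against 128 CPM, 0.92 ± 0.54), Tgfbr3 (betaglycan, a TGF-beta co-receptor, 531 against 255 CPM, 0.97 ± 0.50), Tjp1 (the tight junction scaffold ZO-1, 322 against 156 CPM, 1.24 ± 0.72) and E030013I19Rik. The pooled Rbp4 difference of 1.15 was thus below the 2-fold limit within every batch. Mfap4 and Rbp4 were not particular to the group, as they averaged 579 and 1116 CPM in Col8a1-positive high-Lum cells.

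The gene lists that follow are read beside the 1.75% called higher and 3.99% called lower over all genes. At these shares a list of a few genes holds few or no calls in any case, so a list without a call is given for completeness and nothing is read from it. No collagen gene other than Col8a1 was called higher in the Col8a1-positive low-Lum cells. Of 4 fibrillar collagens that passed the filter, 0 were called higher and Col5a2 lower (56.8 against 139 CPM). Col1a2, used by the rule, averaged 4244 CPM beside 4333 CPM, and Col3a1 1205 beside 2210 CPM without a call. None of 6 cartilage-type collagens was called, Col2a1 averaging 4714 CPM beside 5878 CPM. In the network and beaded group, Col6a1 (129 against 321 CPM) and Col6a2 (55.3 against 203 CPM), 2 chains of collagen VI, were lower, and Col8a2, the partner chain of Col8a1, averaged 58.9 CPM beside 50.9 CPM.

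Other matrix groups held calls in both directions. Of 4 small leucine-rich proteoglycans, Ogn was higher and Dcn and Lum, both rule genes, lower. Of 13 genes of elastic fibres and crosslinking, Mfap4 and Ltbp3 (a latent TGF-beta binding protein, 115 against 50.3 CPM) were higher, and Fbln2 (fibulin 2, 49.3 against 349 CPM, -2.24 ± 1.90 within batches) and Fbn2 (fibrillin 2, 49.1 against 122 CPM) lower, so 2 of 13 in each direction beside 1.75% higher and 3.99% lower over all genes. Of 14 basement membrane genes only Npnt was called, and Nid2 averaged 691 CPM beside 496 CPM. Of 11 matrix proteases and inhibitors, 0 were higher, and Mmp16, Serpine2 and Serpinf1 were lower. Serpine2, an inhibitor of serine proteases, averaged 796 against 1636 CPM.

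Among junction and transport genes, the calls were single genes. Gja1 was the only one called of 3 connexins that passed the filter. The inner ear connexins Gjb2 (954 and 1180 CPM) and Gjb6 (871 and 960 CPM) did not reach the 2-fold limit. Of 9 tight and adherens junction genes only Tjp1 was called, and of 2 anion carriers only Slc13a3, while its relative Slc13a4 averaged 525 CPM beside 387 CPM. No gene was called among 5 of potassium and sodium transport, 8 of amino acid handling or 18 of glutathione and peroxide defence, which at 1.75% higher and 3.99% lower over all genes is not a result about them. Of 6 retinoid genes, Rbp4 and Aldh1a1, a retinal dehydrogenase, were higher (Aldh1a1 136 against 43.4 CPM, read in 27.8% of the cells).

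Signalling genes were called one or a few at a time. Of 4 Wnt inhibitors, Frzb was higher and Wif1 lower, and of 6 Wnt ligands and targets Wnt6 was higher (97.4 against 18.2 CPM, 1.91 ± 0.53 within batches). Of 8 TGF-beta genes, Tgfbr3 was higher and Tgfbi and Tgfbr2 lower (Tgfbr2, the type II receptor, 231 against 535 CPM). The Tgfbr2 difference was carried by batch 2 (126 against 718 CPM) and batch 6 (129 against 427 CPM). It was nearly absent at P4 (533 beside 551 CPM) and in batch 4 (387 beside 419 CPM). Of 9 IGF genes, 0 were higher and Igf2, Igf1r (43.1 against 90.5 CPM) and Igfbp7 were lower, beside 3.99% lower over all genes, with a median of -0.74. Against the cells low in both genes, Igf2 and Igf1r were not called, Igfbp7 (57.1 CPM there) did not pass the detection filter, and Igf2r was the only gene of the list called, as lower. Igf1r averaged 41.4 CPM in high-Lum cells and 159 CPM in the cells low in both. Igfbp7, a secreted IGF-binding protein, was read in 1 of the 54 cells and in 56 of the other 192. Its mean was 0 CPM in 3 batches of the Col8a1-positive low-Lum cells and 0.575 CPM in batch 4, against 53.9 to 145 CPM in the other mesenchymal cells, and it shares exon sequence with Polr2b. Pdgfra, a PDGF receptor typical of fibroblasts, was lower (329 against 785 CPM). No gene was called in the BMP, pleiotrophin, FGF or hedgehog lists, where 7, 6, 4 and 3 genes passed the filter.

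Of 10 transcription factors of otic mesenchyme that passed the filter, Six2 was called higher (27.8 against 5.63 CPM, read in 25.9% of the cells and 8.85% of the others) and 0 lower. Six2 passed the detection filter only through the selected cells, where it was high, so the filter favoured this call. Frzb (read in 23.4% of the other cells) and Slc13a3 (17.2%) were also among the 40 higher genes that passed in this way. Igfbp7 passed only through the other cells. Sox9 averaged 301 CPM beside 321 CPM and Pou3f4, whose loss causes deafness, 274 beside 295 CPM. Of 5 bone and mineral genes, Mgp (matrix Gla protein, 91.1 against 20.1 CPM, 2.07 ± 1.27 within batches) and Spp1 (osteopontin, 219 against 68.2 CPM, 1.72 ± 1.27) were higher. The median of this list was 1.39 over all cells but -0.05 within batches. No gene was called among 12 inner ear matrix and deafness genes, 14 immediate early genes or the 1 cell cycle gene that passed the filter.

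Compared with high-Lum cells alone, 89 of 4253 genes were called higher (2.09%) and 173 lower (4.07%). Gja1, Slc13a3, Itga8, Npnt, Cpz, Rbp4, Mfap4 and Cavin1, all called against all other mesenchymal cells, were not called in this comparison. Gja1 averaged 644 CPM beside 203 CPM in high-Lum cells, and Slc13a3 127 beside 46.8 CPM. Both failed the rule of the same direction in every batch. In batch 4, Gja1 averaged 385 CPM in the selected cells. It averaged 828 CPM in the 5 Col8a1-positive and 0 CPM in the 5 other high-Lum cells there. In batch 6, Slc13a3 averaged 81.6 CPM in the selected cells. It averaged 126 CPM in the 14 Col8a1-positive and 73.9 CPM in the 20 other high-Lum cells there. Of 51 S1 genes that passed the filter, 10 were called higher. Genes named here and not above were Gfra1 (a GDNF co-receptor, 201 against 65.9 CPM), Slc7a11 (the cystine-glutamate exchanger, 557 against 200 CPM), Tmsb4x (thymosin beta 4, 245 against 69.6 CPM), Irak1 (29.5 against 7.17 CPM), Tfdp2, Adamts10, Mtss1 and Ddx50. Slc7a11 was read in 96.3% of the selected cells and 92% of the high-Lum cells, and differed by 1.52 ± 0.73 within batches (SD, n = 4). Lower genes were Dcn (decorin, a rule gene, 2654 against 8619 CPM), Vcam1 (a cell adhesion molecule, 169 against 454 CPM), Tgfbr2 (231 against 597 CPM), Ppp3ca, Map3k1 and Mtmr2. The Dcn difference was -2.01 ± 0.21 within batches. The Tgfbr2 difference ran from -2.67 in batch 2 to -0.07 at P4.

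Compared with the 80 cells low in both genes, 120 of 4132 genes were called higher (2.9%) and 122 lower (2.95%). Only 5 of the 80 cells came from batch 2 and 5 from batch 4, so the differences in these batches rest on few cells. Here Gja1 averaged 644 against 91.5 CPM, Ogn 618 against 121 CPM and Rbp4 1058 against 212 CPM. Their pooled log2 differences were 2.80, 2.35 and 2.31. Within batches they were 3.47 ± 1.35, 1.65 ± 0.89 and 1.37 ± 0.62 (SD, n = 4). Ucma, which encodes a cartilage matrix protein, averaged 678 against 107 CPM, Lox, the collagen and elastin crosslinking enzyme, 264 against 67.6 CPM, and Car13, a carbonic anhydrase, 382 against 109 CPM. The pooled Ucma difference of 2.65 was 1.00 ± 0.50 within batches, and 55 of the 80 cells low in both genes came from P4. Lower genes were Sema6a (a transmembrane semaphorin, 15.6 against 210 CPM), Fam20c (a kinase of secreted proteins, 34.5 against 260 CPM), Cdkn1a (the cyclin-dependent kinase inhibitor p21, 85.7 against 474 CPM), Nkd1 (a Wnt feedback inhibitor, 80.9 against 384 CPM), Wif1 (376 against 1734 CPM), Gnb4, Ndrg2, Enah, Gm9780 and Plac9b. The Fam20c difference ran from -9.70 in batch 4 to -0.79 in batch 6. Plac9b has a near-identical copy, so its counts are uncertain.

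Age was read among the selected cells alone, 8 cells at P4 and 46 at P6. Of 6106 genes that passed the filter, 1602 were called higher at P4 (26.2%) and 707 lower (11.6%), with a median difference of 0.30 over all genes. The P4 side was 8 cells of 1 batch, so these counts are not a measure of change with age. A gene passed the filter when 25% of the cells of either age had a read, which takes few cells at P4. The filter itself thus favoured genes read at P4 alone. Among the 98 P4 and 94 P6 cells of the other mesenchyme, 249 of 4074 genes were higher and 134 lower at P4. The genes called in both sets numbered 52 (3.25% of the 1602 and 20.9% of the 249) for higher and 48 (6.79% of the 707 and 35.8% of the 134) for lower. The 20.9% lies below the 26.2% called higher over all genes tested in the selected cells, so nothing is read from the shared higher calls. For lower genes, the 35.8% stands beside 11.6% over all genes. These shares rest on unlike sets of genes, as 4074 passed the filter in the other cells and 6106 in the selected cells. Both cell sets also took their P4 cells from batch 5, so age and batch cannot be told apart in the shared calls.

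Ptgds, which encodes the lipocalin-type prostaglandin D synthase, was among the lower genes at P4. Its mean was 59.8 CPM in the 8 P4 cells, where the highest cell had 274 CPM, and 29086, 8430 and 14770 CPM in P6 batches 2, 4 and 6. The other mesenchymal cells had 1517 CPM at P4 and 23879 CPM at P6. Ucma had 14.9 CPM at P4, read in 1 of 8 cells, and 895, 1021 and 618 CPM at P6, beside 19.6 and 270 CPM in the other mesenchymal cells at the 2 ages. Both genes were thus lower at P4 inside and outside the group.

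Col15a1, a collagen of the basement membrane zone, was read in 0 of 8 P4 cells (exact 95% interval up to 36.9%) and 33 of 46 P6 cells, where it averaged 266 CPM. In the other mesenchymal cells it averaged 189 CPM at P4 and 380 CPM at P6. Serping1, the C1 inhibitor of complement, averaged 0.727 CPM at P4 and 435 CPM at P6, beside 70.7 and 260 CPM. Pdk1 (0.44 and 118 CPM) and Fgfr1 (0.913 and 141 CPM) were also lower at P4 in the selected cells, whereas the other mesenchymal cells had 112 and 104 CPM of Pdk1 and 140 and 183 CPM of Fgfr1. Ggact and Glul were the remaining 2 lower genes, and Glul has a pseudogene with which reads may be shared. Whether these age differences differ between the groups was not tested.

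The 8 genes with the largest positive difference at P4, Tmem132c, Bcap29, D1Ertd622e, Poc1b, Drp2, Ints2, Thop1 and Pus1, were each read in 4 to 6 of the 8 P4 cells and in 0 to 3 of the 46 P6 cells. They passed the detection filter through the P4 cells alone, so the filter favoured these calls. Thop1, an oligopeptidase, averaged 251 CPM at P4 and 9.9 CPM at P6. Npnt and Cpz, called higher against all other mesenchymal cells, also had unlike levels by batch. Npnt was at 106 CPM in the P4 cells and 807, 614 and 514 CPM in the P6 batches. Neither gene was particular to the group. Npnt averaged 557 CPM in the selected cells beside 584 CPM in Col8a1-positive high-Lum cells, and Cpz 729 beside 768 CPM.

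**Figure D5:**
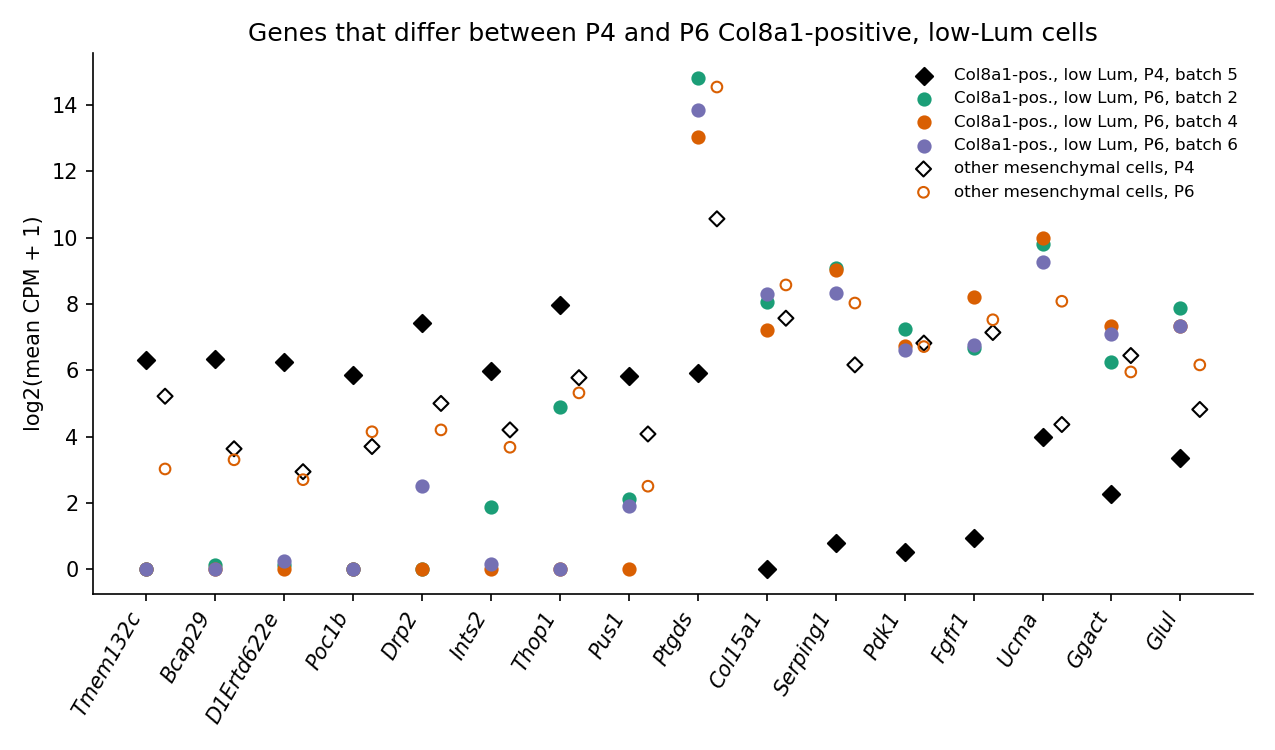
Mean CPM, as log2(mean CPM + 1), of 16 genes in Col8a1-positive low-Lum cells of the P4 batch (filled diamonds, 8 cells) and of the 3 P6 batches (filled circles, 46 cells), with the other mesenchymal cells as open symbols. Ptgds lies at 59.8 CPM at P4 and 8430 to 29086 CPM at P6.

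Of the markers of other cell types, all 5 hair cell markers and 5 of 6 macrophage markers were at 0 in every one of the 54 cells, as were 4 of 5 endothelial markers (Kdr, Ptprb, Flt1 and Pecam1) and the pericyte markers Aspn and Kcnj8. Summed endothelial markers reached 100 CPM in 1 of the 54 cells (0 to 627 CPM), through Cldn5, and in 2 of the other 192. Summed pericyte markers reached 100 CPM in 4 of the 54 cells (0 to 1166 CPM) and 18 of the other 192. Summed glial markers did so in 1 of the 54 cells and 32 of the other 192, through Ednrb, which averaged 4.94 CPM against 60.3 CPM. Schwann cell markers reached 100 CPM in 2 cells of the 54, and melanocyte markers in 0. Summed epithelial markers reached 100 CPM in 18 of the 54 cells (33.3%, 0 to 894 CPM) and in 36 of the other 192 (18.8%, 0 to 1538 CPM), mainly through Krt18 and Fbxo2, and Cldn9 was at 0 in the 54 cells. The epithelial share was 50% of the 8 P4 cells, 37.5%, 0% and 38.1% of the cells of P6 batches 2, 4 and 6. Their part in the differences above was not tested.

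Within the group, correlations of other genes with the level of Col8a1 are given as a description only, as the cells were chosen by Col8a1. Across the 54 cells, the median Spearman correlation with Col8a1 over 1414 genes read in at least 50% of the cells was 0.00. The value exceeded 0.5 for 1 gene and fell under -0.5 for 0 genes, and it was 0.08 for reads per cell. In counts this sparse a weak correlation is no finding.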

How the data were processed

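The authors aligned the Smart-seq2 reads with STAR to GRCm38 (mm10) and counted them per gene with RSEM, per the submitters' processing notes and the study's methods. Per the file, the authors deposited expected counts for each gene and cell, neither normalized nor rounded. The strand setting of the counting is not given in the sources used here. The table holds 1155 cells and 52627 rows, of which 92 are spike-ins.

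Cells with at least 120000 counts, 950 genes and at most 10% mitochondrial counts were kept. Values were divided by the cell's total, spike-ins included, and given as CPM. Spike-ins, 26 symbols turned into dates and duplicated symbols (118 rows) were left out of comparisons. No doublet caller was run; the study gated cells by size. The labels put the samples in no group, and cells could not be assigned to samples, so age, dissection and sequencing batch came from the deposited cell table. Groups were compared as log2(mean CPM + 1), with a 2-fold rule that every batch with 5 or more cells of each group had to share. No count model or p-value was used because cells are not replicates. The call rule was also run on simulated data, and nothing here rests on the outcome. Named genes were the 15 called genes per direction (8 for age) with the largest differences that at least 50% of the higher group's cells expressed, the 4 most different called genes of each of 45 lists with the list's highest gene, and the markers. The members, rule and lists were chosen with earlier results of these data known. Alternatives were other pseudocounts, filters, weights, limits of the rule, thinning to 200000 reads and leaving out each batch. Python 3.11.15 with numpy 2.4.6, pandas 2.3.3 and scipy 1.17.1 was used. Promoter windows came from RefSeq (GRCm38.p6), gene positions from GENCODE.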

Additional observations from a re-analysis of the deposited data

Results flagged for a closer look

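Slc29a1, the nucleoside transporter, was singled out because 1 of its 4 within-batch differences stood far from the others: it was -4.90 in batch 2 and between -1.84 and -1.30 in the other 3 batches, on the log2(mean CPM + 1) scale. All 4 differences had the same sign. In all, 31 genes were looked at in this way, so 1 flagged gene may arise by chance, at a rate that was not measured. The cause was not tested.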

How the results depend on the processing

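All 31 single genes followed kept their direction under each of the 17 other settings (527 values, of which 500 stayed within 1 SD of the within-batch differences). These genes were chosen for having the same direction in every batch. Other detection filters, pseudocounts or batch weights cannot reverse such a gene, so the kept directions are no independent check. Counts moved more than the single-gene values. Without the detection filter, 162 genes were higher and 746 lower against all other mesenchymal cells, 231 and 600 against high-Lum cells, 314 and 212 against cells low in both, and 2783 and 1787 at P4 against P6. With detection in 50% of the cells, chosen after seeing the data, they were 26 and 29, 22 and 34, 43 and 35, and 521 and 200. Means of log2 values per cell gave 181 higher against all others, 161 against high-Lum cells and 250 against cells low in both. Against cells low in both, equal weight per batch gave 202 higher, means of within-batch differences 253 higher, thinning 195 lower, a limit of Col8a1 above 0 gave 224 and 278, and 4 of 5 mesenchymal genes 198 lower. Of the listed genes outside the S1 list, 6 were called higher, and 11 by means of within-batch differences.

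Leaving out 1 batch, which also leaves 1 batch fewer to share the direction, gave 109 to 156 higher and 226 to 277 lower against all others, 126 to 183 and 261 to 287 against high-Lum cells, and 177 to 353 and 200 to 230 against cells low in both. Of the 72 genes called higher and 164 lower against all others, 49 and 121 were also called without batch 5 (P4). The Col8a1-positive low-Lum share was 18.8% to 32.9%, highest without the P4 batch, and the median of detected genes was 2410 when 5 counts were needed. The depth of these cells leaves genes of few reads undetected in part of the cells. No paired analysis was possible because the labels give no replicate numbers to pair. The cells were instead compared within each sequencing batch, as differences without a test.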
